A study of Homo sapiens with 14 samples.

Results

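HCT116 is an established cell line from a human colorectal carcinoma. The 6 HCT116 libraries of polyadenylated RNA, taken by their titles from the 14 libraries of the series, were 3 of cells kept in normoxia (21% O2) and 3 of cells kept in hypoxia (0.5% O2, 16 h). The labels name no transgene or drug in either condition, and the culture medium was McCoy's 5a with 10% fetal bovine serum. Per the study's methods the replicates were biological replicates, and both conditions come from 1 line, so p-values measure the spread between cultures of that line. The other 8 libraries are of PC3, a prostate cancer line, and were used only where a difference between the lines was tested.

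When oxygen falls, the prolyl hydroxylases of the EGLN family can no longer mark the alpha subunits of HIF (hypoxia-inducible factor) for destruction, and HIF activates genes for glucose uptake, glycolysis, pH control and blood vessel growth. Cells short of oxygen draw less on respiration and more on glycolysis, whose last step, the reduction of pyruvate to lactate, restores the NAD+ it needs. Sterol synthesis, collagen hydroxylation and histone demethylation all use molecular oxygen. Ribosome production and cell division are costly processes that oxygen-starved cells are known to slow.

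The libraries held 133067391 to 150630928 counts, and a gene with no count could still hold up to 3, which is 0.0193 to 0.0229 CPM (a gene's counts relative to the total of its library, scaled with the TMM factors of edgeR). Of the 16 colon epithelial markers examined, KRT8, KRT18, KRT19, EPCAM, CDH1, CDX2, KRT20 and GPA33 had enough counts to be tested, and their sum with the others was 3862 ± 79.2 CPM in normoxia and 4802 ± 255 CPM in hypoxia (SD, n = 3). The intestinal transcription factor CDX2 was at 18.3, 17.04 and 15.8 CPM in normoxia and 19.1, 18.9 and 20.2 CPM in hypoxia, but other intestinal markers such as CDH17 and GPA33 were at or near 0. Summed markers of endothelium and leukocytes were between 0.109 and 0.443 CPM in every library, those of fibroblasts between 8.58 and 12.4 CPM and those of prostate epithelium between 15.9 and 18.9 CPM. Normoxia replicate 3 stood apart from the other normoxia libraries on the second principal component of log2 CPM, and the cytosolic ribosomal protein genes, short and abundant, summed to 87630 CPM in it against 67520 and 70950 CPM in the other 2. Its part in the results was measured by leaving it out, like each of the other libraries.

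Of the 14120 genes tested, 25.9% passed the threshold (Benjamini-Hochberg adjusted p under 0.05 in the quasi-likelihood test of edgeR), 14.6% as higher in hypoxia and 11.3% as lower. Most of these changes were small. Among the 2061 genes that were higher, 73.07% changed by less than 1.5-fold and the median fold was 1.313. Among the 1597 that were lower, 85.6% changed by less than 1.5-fold and the median fold was 1.263. Of all 6 fits with a library left out, every one called 1156 of the 2061 higher genes (56.1%) and 762 of the 1597 lower genes (47.7%). Unless it is said otherwise, each gene named here as changed is among these. Scaling by total counts alone lowered the log2 fold change of the median gene by about 0.09 and turned the balance, to 1286 higher and 3146 lower (29.0% higher, against 56.3%). Small rises and falls are therefore relative to the bulk of transcripts.

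Falls were few among the most abundant genes. Of the 102 genes that averaged 1000 CPM or more, 40 were higher (39.22%) and 1 was lower. The single fall was that of PDP1, a phosphatase that activates pyruvate dehydrogenase, which was at 1319, 1361 and 1348 CPM in normoxia and 1157, 1129 and 1107 CPM in hypoxia (log2 fold change -0.25 ± 0.059, adjusted p = 0.0112). Between 100 and 1000 CPM, 382 of 2123 genes were higher and 193 lower, and between 10 and 100 CPM the 2 directions were nearly balanced, at 1109 and 1003 of 6802. Summed over the called genes, the mean level gained 73670 CPM among those that rose, and among those that fell it decreased by 17360 CPM. These sums depend on the scaling. The TMM factors were 1.002 to 1.049 in normoxia and 0.9592 to 0.9851 in hypoxia, so that CPM add up to more in a hypoxia library by the scaling alone. The sums are therefore no measure of a net gain of RNA. The 20 most abundant genes took 8.1% to 8.2% of the counts of a normoxia library and 9.2% to 9.8% of a hypoxia library.

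**Figure D1:**
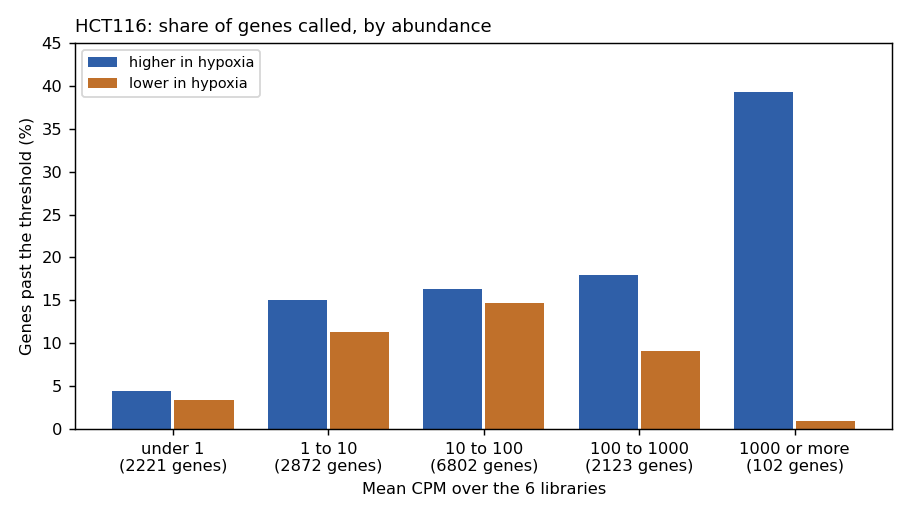
Share of tested genes that passed the threshold as higher (blue) or lower (orange) in hypoxia, by mean CPM over the 6 HCT116 libraries. From 100 to 1000 CPM 17.99% were higher and 9.091% lower, and at 1000 CPM or more 39.22% of the 102 genes were higher and 0.9804% lower.

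The 4 largest gains in mean CPM of any genes were those of LDHA, ENO1, GAPDH and PKM, all glycolytic. All but 3 of the 14 tested genes of glucose uptake and upper glycolysis were higher and none was lower, with a median log2 fold change of 1.24 against 0.002 for all genes. Of 16 tested genes of lower glycolysis and lactate handling, 11 were higher and none lower (median 0.93). Their summed level went from 2904 ± 125 to 7957 ± 337 CPM for the upper part and from 15970 ± 68.5 to 30730 ± 2000 CPM for the lower part, with no overlap between the conditions.

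LDHA, the lactate dehydrogenase subunit that favours lactate production, was at 1556, 1573 and 1656 CPM in normoxia and 5085, 5370 and 4641 CPM in hypoxia (log2 fold change 1.66 ± 0.071, adjusted p = 4.22e-08). The conditions did not overlap, and the fold was 3.16. Over all genes tested, 22.6% had every hypoxia library above every normoxia library, and 20.2% every one below. LDHB, the partner subunit, was at 1412, 1548 and 1501 CPM in normoxia and 1446, 1492 and 1404 CPM in hypoxia and did not pass the test (adjusted p = 0.695). Per kilobase of annotated exon, LDHB stood above LDHA in normoxia (498 against 265 CPM per kb), and in hypoxia the order was the other way round (485 against 835). The lengths are of all GENCODE exons of a gene, whereas reads were counted on RefSeq genes. In plain CPM LDHA was above LDHB in each normoxia library, so the order in normoxia rests on the lengths used.

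Isozymes of other steps rose by unequal factors. ALDOC, a minor aldolase of this line, rose 13.8-fold, from 12.9 ± 2.45 to 179 ± 45.2 CPM, while the main form ALDOA rose 2.6-fold, from 1194 ± 66.1 to 3110 ± 189 CPM. ALDOA remained the more abundant per kilobase, at 812 against 68.5 CPM per kb in hypoxia. ENO2 rose 4.53-fold and ENO1 1.89-fold, the latter from 3257, 3284 and 3155 to 5957, 6499 and 5843 CPM. Of the glucose transporters, SLC2A1 was at 233, 199.6 and 236 CPM in normoxia and 944, 972 and 994 CPM in hypoxia (log2 fold change 2.12 ± 0.078, adjusted p = 1.63e-08). SLC2A3, a high-affinity transporter, went from 5.53, 7.09 and 9.16 to 64.3, 79.4 and 96.8 CPM, but its near-identical copy SLC2A14 makes the split of reads between them uncertain. Of the phosphofructokinase genes PFKL and PFKP rose 1.96-fold and 1.88-fold, and the muscle form PFKM was at 159, 159 and 151 CPM in normoxia and 147, 141 and 152 CPM in hypoxia (adjusted p = 0.286).

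The smallest rise of the central pathway was that of GAPDH, at 4427, 4340 and 4023 CPM in normoxia and 7031, 7291 and 6363 CPM in hypoxia (log2 fold change 0.69 ± 0.070, adjusted p = 5.74e-05). PGK1, PGAM1 and GPI rose 2.91-fold, 2.4-fold and 3.1-fold. PKM, which makes pyruvate, was 1.9-fold higher, and the 2 splice forms of its product are not separated in gene counts. HK2, the inducible hexokinase, was at 102, 91.4 and 87.1 CPM in normoxia and 363, 358 and 384 CPM in hypoxia (log2 fold change 1.98 ± 0.075, adjusted p = 1.63e-08), and HK1 rose 2.15-fold. Several of these genes have processed pseudogenes, and reads shared with a copy may be split or lost.

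**Figure D2:**
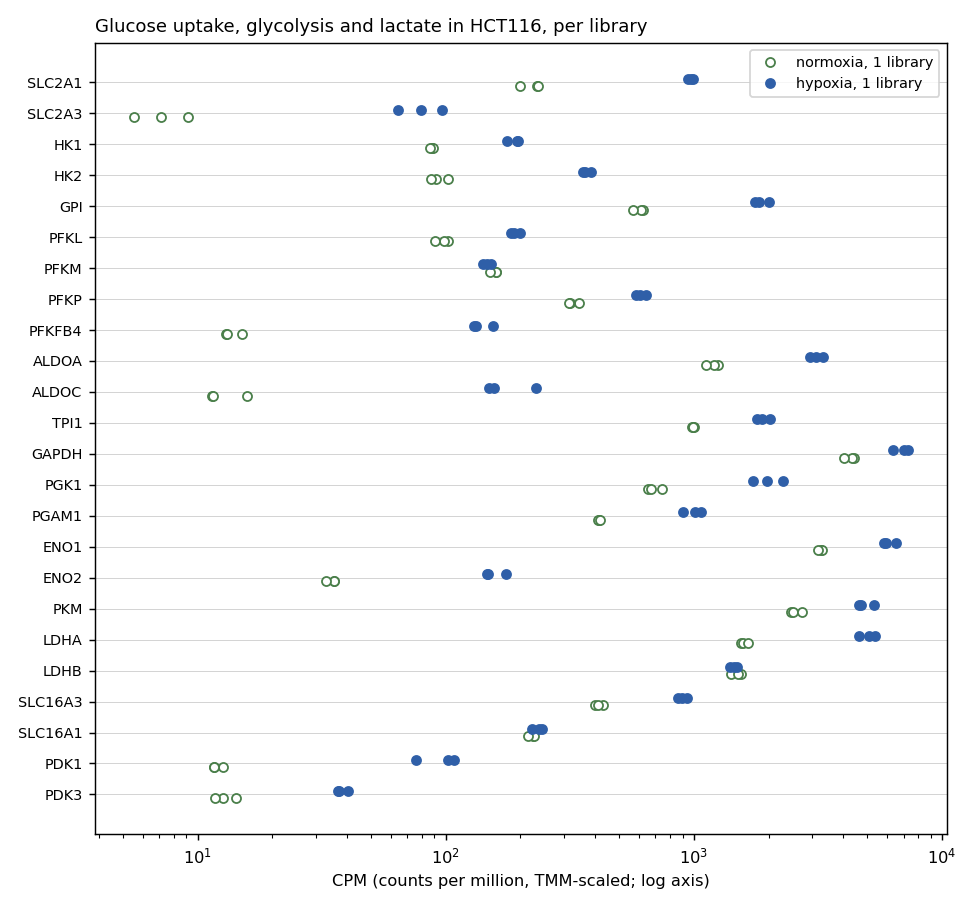
CPM (log axis) of 24 genes of glucose uptake, glycolysis and lactate in each of the 3 normoxia libraries (open green) and the 3 hypoxia libraries (filled blue) of HCT116. LDHA lies at 1556 to 1656 CPM in normoxia and at 4641 to 5370 CPM in hypoxia, whereas LDHB, PFKM and SLC16A1 overlap between the conditions.

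Control points around the pathway moved as well. PDK1 and PDK3, kinases that shut off pyruvate dehydrogenase, went from 11.98 ± 0.612 to 95.3 ± 16.9 CPM and from 12.9 ± 1.33 to 38.04 ± 1.92 CPM. PFKFB4, which makes a strong activator of phosphofructokinase, was at 13.1, 15.1 and 13.1 CPM in normoxia and 130.5, 154 and 133 CPM in hypoxia (log2 fold change 3.34 ± 0.092, adjusted p = 3.3e-09). The lactate exporter SLC16A3 was 2.18-fold higher, whereas the importer SLC16A1 was at 224, 227 and 214 CPM in normoxia and 244, 224 and 237 CPM in hypoxia (adjusted p = 0.359). Of 11 glycogen genes tested 6 were higher (54.55%, against 14.6% of all genes) and 1 lower (9.091%, against 11.3%). GBE1, the branching enzyme, rose from 41.1, 42.3 and 44.03 to 116, 139 and 115 CPM, glycogen synthase GYS1 2.1-fold, PGM1 2.31-fold and the phosphatase subunit PPP1R3B 2.54-fold. GYG1, the protein primer of glycogen, was lower, at 63.8, 65.7 and 73.5 CPM in normoxia and 52.7, 46.96 and 47.7 CPM in hypoxia (log2 fold change -0.46 ± 0.075, adjusted p = 0.00145).

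Of 51 tested textbook HIF targets, a list picked because hypoxia is known to raise them, 48 were higher and 1 was lower, or 2 without hypoxia replicate 2 (median log2 fold change 1.65). BNIP3 and BNIP3L, mitophagy receptors of the outer mitochondrial membrane, were both higher. BNIP3 was at 40.7, 40.6 and 41.1 CPM in normoxia and 387, 404 and 351 CPM in hypoxia (log2 fold change 3.22 ± 0.074, adjusted p = 7.82e-10), and BNIP3L rose 9.59-fold. Among secreted factors, VEGFA rose 2.14-fold, adrenomedullin (ADM) 3.79-fold and stanniocalcin 2 (STC2) 3.13-fold. IGFBP3, which binds insulin-like growth factors, rose from 0.251, 0.316 and 0.452 to 1.68, 3.59 and 3.06 CPM, so that it stayed a low-count gene.

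Of 9 HIF subunits and enzymes that mark them, 3 were higher (33.33%, against 14.6% of all genes) and 1 lower (11.11%, against 11.3%). EGLN3 was at 4.58, 4.51 and 4.69 CPM in normoxia and 27.1, 30.1 and 27.8 CPM in hypoxia (log2 fold change 2.62 ± 0.075, adjusted p = 3.4e-09), and EGLN1, the main HIF prolyl hydroxylase, rose 2.94-fold from 71 ± 1.44 to 209 ± 0.712 CPM. HIF1A itself was lower, at 201, 214 and 203 CPM in normoxia and 129, 131 and 139 CPM in hypoxia (log2 fold change -0.63 ± 0.063, adjusted p = 4.86e-05). Its 3 hypoxia libraries all lay under its 3 normoxia libraries. ARNT, which encodes the common HIF-1 beta subunit, was at 40.7, 42.2 and 39.2 CPM in normoxia and 41.4, 42.8 and 38.95 CPM in hypoxia (adjusted p = 0.907), and VHL at 61.7, 64.4 and 60.9 CPM in normoxia and 58.9, 61.5 and 58.7 CPM in hypoxia (adjusted p = 0.475). An antisense transcript overlaps HIF1A, and since the use of strand in counting is not stated, the reads of the pair cannot be told apart.

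The HIF core motif, ACGTG or GCGTG on either strand, was looked for in the 300 bases around each start site (250 before, 50 after, RefSeq sequences of GRCh38.p14). It overlaps the E-box CACGTG, which other factors read. It was found in 34 of 40 promoters available for the HIF target list (85%) and in 17 of 27 for the glycolysis lists (63.0%), against 62.5% of the 11016 promoters of tested genes and 48.4% of all 27305 in the table. In the sterol list it was found in 15 of 18 (83.3%). Over all genes called the shares were 64.0% of the higher and 64.8% of the lower, and they were 67.4% among genes at least 2-fold higher and 51.1% among those at least 1.5-fold lower. Promoters are shown for LDHA and PGK1, among the largest gains in CPM, for BNIP3, and for SNHG12, a gene that fell. Each was placed on GRCh37 by an exact match, LDHA at chr11:18415860-18416159 (plus strand), PGK1 at chrX:77359495-77359794 (plus), BNIP3 at chr10:133795378-133795677 (minus) and SNHG12 at chr1:28908336-28908635 (minus). Each is written 5′ to 3′ along its gene, with the motif on either strand in capitals.
LDHA: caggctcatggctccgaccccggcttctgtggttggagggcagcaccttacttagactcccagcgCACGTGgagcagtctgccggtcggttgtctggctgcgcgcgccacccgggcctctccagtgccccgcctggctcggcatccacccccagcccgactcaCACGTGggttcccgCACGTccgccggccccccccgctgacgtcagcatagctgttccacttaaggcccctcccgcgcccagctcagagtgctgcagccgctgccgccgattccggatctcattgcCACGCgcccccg
PGK1: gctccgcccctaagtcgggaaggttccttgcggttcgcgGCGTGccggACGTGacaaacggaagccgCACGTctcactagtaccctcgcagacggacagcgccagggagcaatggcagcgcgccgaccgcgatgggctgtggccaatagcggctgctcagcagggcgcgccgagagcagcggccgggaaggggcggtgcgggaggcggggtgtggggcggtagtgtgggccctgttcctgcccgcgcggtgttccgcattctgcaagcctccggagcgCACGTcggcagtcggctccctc
BNIP3: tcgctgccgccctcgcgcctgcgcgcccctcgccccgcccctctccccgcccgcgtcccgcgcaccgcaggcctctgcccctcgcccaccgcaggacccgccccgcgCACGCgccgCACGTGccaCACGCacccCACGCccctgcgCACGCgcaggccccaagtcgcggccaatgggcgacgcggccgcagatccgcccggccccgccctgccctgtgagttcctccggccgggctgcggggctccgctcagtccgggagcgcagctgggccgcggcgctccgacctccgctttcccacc
SNHG12: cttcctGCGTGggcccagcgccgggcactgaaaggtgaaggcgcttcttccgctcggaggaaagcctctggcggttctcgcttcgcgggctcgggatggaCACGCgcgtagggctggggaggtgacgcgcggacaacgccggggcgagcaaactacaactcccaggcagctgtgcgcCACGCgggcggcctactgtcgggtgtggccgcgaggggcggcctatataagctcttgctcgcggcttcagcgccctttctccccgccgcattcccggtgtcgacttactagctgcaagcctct
Counted on both strands, the motif starts at 6 positions in the LDHA and BNIP3 windows, 4 in PGK1 and 3 in SNHG12. CACGTG is its own reverse complement and is counted on each strand, so separate sites are fewer than 6 in LDHA and BNIP3. A match is a run of letters, and binding was not measured here.

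Genes of sterol synthesis were higher in hypoxia. Of 25 tested genes of the pathway and its control, 22 were higher and none was lower, and all 25 had a log2 fold change above 0 (median 0.55). The sum went from 2564 ± 67.1 to 3739 ± 451 CPM, with hypoxia replicate 2 highest at 4258 CPM. Between 22 and 23 genes were called with any 1 library left out, and 21 with total-count scaling. In a fit over the libraries of both lines, 7 were.

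INSIG1, which holds the sterol sensor in the endoplasmic reticulum, was at 68.3, 75.5 and 68.3 CPM in normoxia and 171, 232 and 158 CPM in hypoxia (log2 fold change 1.40 ± 0.12, adjusted p = 1.87e-05). It is a standard target of SREBP-2, whose gene SREBF2 rose 1.44-fold. Within the pathway, HMGCS1, SQLE, IDI1, MVD and DHCR7 were 1.51-, 1.47-, 1.66-, 1.59- and 1.6-fold higher. SQLE and several later enzymes use oxygen as a substrate.

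Of 32 tested fatty acid genes 11 were higher (34.38%, against 14.6% of all genes) and 3 lower (9.375%, against 11.3%). SCD, the oxygen-using desaturase that makes oleate, was at 1178, 1415 and 1042 CPM in normoxia and 1959, 2952 and 2133 CPM in hypoxia (log2 fold change 0.95 ± 0.15, adjusted p = 0.000986), with hypoxia replicate 2 again the highest. FASN, the fatty acid synthase, rose from 1410, 1235 and 1208 to 1890, 2021 and 1834 CPM. PLIN2 and HILPDA, which coat or protect lipid droplets, were 1.49-fold and 1.93-fold higher. ME1, which makes NADPH, and GPAM, the first enzyme of triglyceride synthesis, were lower, at log2 fold changes of -0.37 and -0.40.

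Few genes of respiration passed the test. Of 26 tricarboxylic acid cycle genes 2 were higher and 2 lower, of 39 complex I genes 3 and 1, and of 37 genes of complexes III and IV and ATP synthase 1 and 1, each below the share among all genes in either direction. IDH2, the NADP-dependent isocitrate dehydrogenase, was at 21.8, 24.5 and 20.8 CPM in normoxia and 36.8, 44.05 and 35.2 CPM in hypoxia (log2 fold change 0.79 ± 0.093, adjusted p = 0.000173). IDH3A, a subunit of the NAD-dependent enzyme, was at 159, 162 and 164 CPM in normoxia and 135, 122 and 123 CPM in hypoxia (log2 fold change -0.35 ± 0.065, adjusted p = 0.0028). LONP1, a matrix protease, rose 1.42-fold. No complex I gene was higher without normoxia replicate 1 or 2 or hypoxia replicate 1 or 2, and 7 were without normoxia replicate 3. Without the last, 9 genes of complexes III and IV and ATP synthase were higher. Of the tricarboxylic acid cycle genes, 1 was higher without any 1 normoxia replicate or hypoxia replicate 2, and 1 was lower without any 1 library other than hypoxia replicate 1. With total-count scaling, 10 tricarboxylic acid cycle genes, 6 of complex I and 5 of complexes III and IV and ATP synthase were lower.

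Genes that build mitochondria were called lower at about the rate of all genes. Of 75 mitochondrial ribosomal proteins 55 had a log2 fold change below 0, and 9 were lower (12%, against 11.3% of all genes) while none was higher. MRPL3 was at 344, 337 and 383 CPM in normoxia and 305, 263 and 266 CPM in hypoxia (log2 fold change -0.35 ± 0.078, adjusted p = 0.00797), and MRPS10 was 1.23-fold lower. Of 34 genes of mitochondrial import and biogenesis 4 were lower and 3 higher, the latter 1 without normoxia replicate 1 or 2 or hypoxia replicate 3 and 5 without normoxia replicate 3. The import chaperone TIMM9 was at 27.1, 27.6 and 38.2 CPM in normoxia and 22.4, 20.8 and 21.9 CPM in hypoxia, and TFB2M, a factor of mitochondrial transcription, at 68.7, 67.4 and 90.5 CPM in normoxia and 59.7, 49.99 and 53.05 CPM in hypoxia. SLC25A4, a carrier of ADP and ATP, rose 1.51-fold. For TIMM9 and TFB2M, normoxia replicate 3 was well above the other normoxia libraries. The number of lower mitochondrial ribosomal proteins was 2 without hypoxia replicate 2 or 3, 4 without normoxia replicate 3, where 4 others were higher, and 14 without hypoxia replicate 1. With total-count scaling it was 31.

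**Figure D3:**
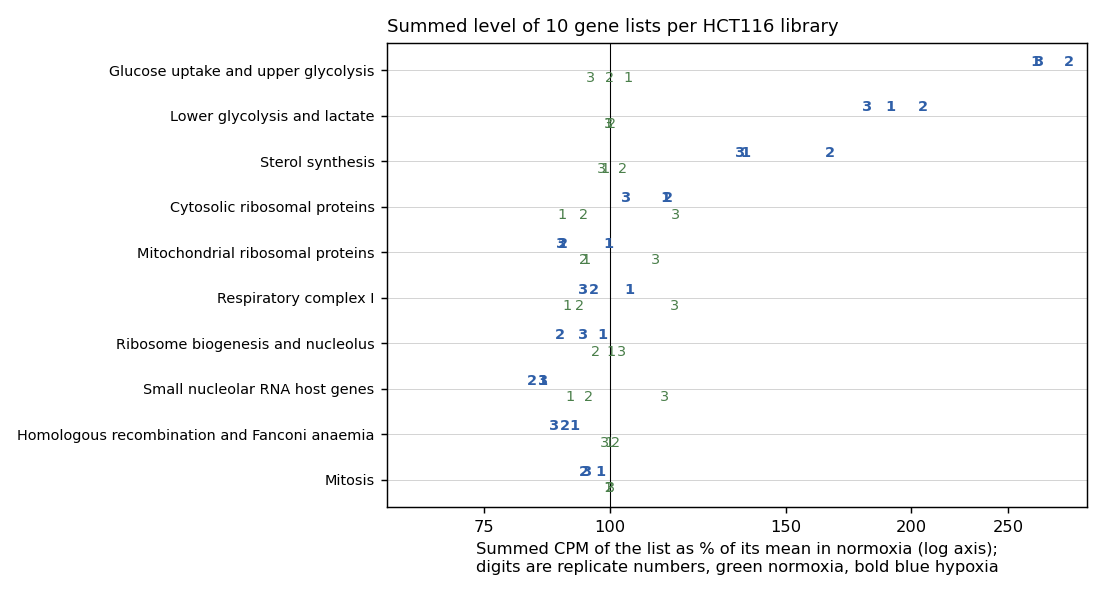
Summed CPM of 10 gene lists in each HCT116 library as a percentage of the list's mean in normoxia (log axis). Digits give the replicate number, in green for normoxia and bold blue for hypoxia. Both glycolysis sums and the sterol sum lie apart from normoxia, while normoxia replicate 3 stands above the other normoxia libraries for both kinds of ribosomal protein, complex I and the snoRNA hosts.

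Some genes that make ribosomes were lower, and no cytosolic ribosomal protein was. Of 66 tested genes of ribosome biogenesis and the nucleolus, 16 were lower (24.24%, against 11.3% of all genes) and 3 higher (4.545%, against 14.6%). Of the 66, 54 were below 0 (median log2 fold change -0.15). LTV1, which helps to export the small subunit, was at 115, 114 and 120.5 CPM in normoxia and 90.3, 76.9 and 86.3 CPM in hypoxia (log2 fold change -0.46 ± 0.072, adjusted p = 0.0011). UTP15, of the small-subunit processome, was 1.35-fold lower, the helicase DDX47 1.33-fold and WDR43 1.23-fold. DKC1, the pseudouridine synthase of box H/ACA particles, went from 281, 281 and 269 to 220.5, 207 and 230.4 CPM. FBL, its counterpart in 2′-O-methylation, was higher, at 367, 362 and 359.5 CPM in normoxia and 460.5, 435 and 425 CPM in hypoxia (log2 fold change 0.28 ± 0.062, adjusted p = 0.00757), but with total-count scaling the log2 fold change of FBL was 0.19 (adjusted p = 0.0557). The number higher was 1 without normoxia replicate 1 or 2 or hypoxia replicate 1. The number lower was 7 without normoxia replicate 1, 8 without hypoxia replicate 2, 9 without hypoxia replicate 3 and 35 with total-count scaling.

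Among the 78 cytosolic ribosomal proteins tested, 11 were higher (14.1%, against 14.6% of all genes) and none lower. RPL13A was at 344, 395 and 419 CPM in normoxia and 499.5, 650.4 and 503 CPM in hypoxia (log2 fold change 0.51 ± 0.11, adjusted p = 0.00579) and RPS9 at 701, 729 and 819 CPM in normoxia and 1054, 1136 and 949.6 CPM in hypoxia (log2 fold change 0.48 ± 0.084, adjusted p = 0.00206). This count rested on the libraries used, since without normoxia replicate 3 it was 49, and without hypoxia replicate 1 or 2 it was 5 and without normoxia replicate 1 or 2 it was 6. These genes also have many processed pseudogenes. Elongation factor EEF2 rose 1.25-fold, whereas EIF4E, the cap-binding protein, and EIF5, which acts in start codon selection, were lower, at log2 fold changes of -0.33 and -0.35. EEF1A1, the gene with the most counts, was at 10150, 11130 and 12780 CPM in normoxia and 13260, 15060 and 11880 CPM in hypoxia (adjusted p = 0.0966).

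Cytosolic aminoacyl-tRNA synthetases, which charge tRNAs with amino acids, included 6 lower of 19 (31.58%, against 11.3% of all genes). MARS was at 266, 299.7 and 261 CPM in normoxia and 180.1, 207 and 201 CPM in hypoxia (log2 fold change -0.49 ± 0.078, adjusted p = 0.00123), and NARS was 1.25-fold lower. DARS, the aspartyl enzyme, moved the other way, from 174, 179 and 175 to 312, 315 and 267 CPM (log2 fold change 0.76 ± 0.074, adjusted p = 4.26e-05). SLC7A11, the cystine importer regulated by ATF4 and NRF2, was among the larger falls of a well-expressed gene, at 78.1, 99.4 and 76.8 CPM in normoxia and 38.6, 60.4 and 39.9 CPM in hypoxia (log2 fold change -0.87 ± 0.16, adjusted p = 0.00254). Of the 28 ATF4 target genes tested, 6 were higher (21.43%, against 14.6% of all genes) and 2 lower (7.143%, against 11.3%). Without normoxia replicate 1 or 2 or hypoxia replicate 2, 3 were higher, and without hypoxia replicate 2, 7 were lower.

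Small nucleolar RNA host genes held the highest share of falls among the 60 gene lists (41.18%). These transcripts carry, in their introns, the guide RNAs of ribosomal RNA modification. Of 17 tested, 7 were lower and none was higher, 16 were below 0, and the median log2 fold change was -0.36. With a library left out, 7 to 9 were lower, and without normoxia replicate 3, 2 were higher. SNHG12 was at 10.1, 10.9 and 12.7 CPM in normoxia and 5.41, 5.76 and 6.38 CPM in hypoxia (log2 fold change -0.94 ± 0.10, adjusted p = 0.000108), SNHG7 at 61.7, 62.1 and 62.5 CPM in normoxia and 40.5, 36.5 and 43.1 CPM in hypoxia (log2 fold change -0.63 ± 0.071, adjusted p = 0.000122) and SNHG1 at 108, 116 and 140.4 CPM in normoxia and 81.1, 74.7 and 80.6 CPM in hypoxia (log2 fold change -0.62 ± 0.092, adjusted p = 0.000778). In each the conditions did not overlap. SNHG3, SNHG4, SNHG15 and TAF1D were the other 4, with log2 fold changes of -0.57, -0.44, -0.46 and -0.38. GAS5, a further host, was at 47.2, 58.8 and 96.6 CPM in normoxia and 44.2, 52.2 and 58.7 CPM in hypoxia and did not pass (adjusted p = 0.193), with normoxia replicate 3 highest.

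At a mean of 50 CPM or more, 12 genes fell by 1.5-fold or more, against 119 that rose as much, a rule chosen after the values had been seen. SNHG1 and SNHG7 were among the 12, with HIF1A, SLC7A11, NEAT1 and 7 others. RABGGTB, a subunit of the Rab prenylation enzyme whose introns also hold snoRNAs, was at 133, 141 and 193 CPM in normoxia and 85.4, 82.3 and 88.9 CPM in hypoxia (log2 fold change -0.86 ± 0.12, adjusted p = 0.000516). ZMPSTE24, which matures prelamin A, was at 198, 200.1 and 231 CPM in normoxia and 134, 124 and 129 CPM in hypoxia (log2 fold change -0.70 ± 0.074, adjusted p = 7.88e-05), and DIMT1, a ribosomal RNA dimethylase, at 97.2, 87.98 and 118 CPM in normoxia and 67.2, 48.9 and 55.2 CPM in hypoxia (log2 fold change -0.82 ± 0.12, adjusted p = 0.00091). CYP24A1, which inactivates vitamin D, was at 111, 117 and 129 CPM in normoxia and 61.9, 68.6 and 73.9 CPM in hypoxia (log2 fold change -0.81 ± 0.082, adjusted p = 5.92e-05). UBLCP1, JKAMP and HOXA9, a homeobox factor, were 1.57-, 1.55- and 1.55-fold lower. No hypoxia library reached a normoxia library for any of them.

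**Figure D4:**
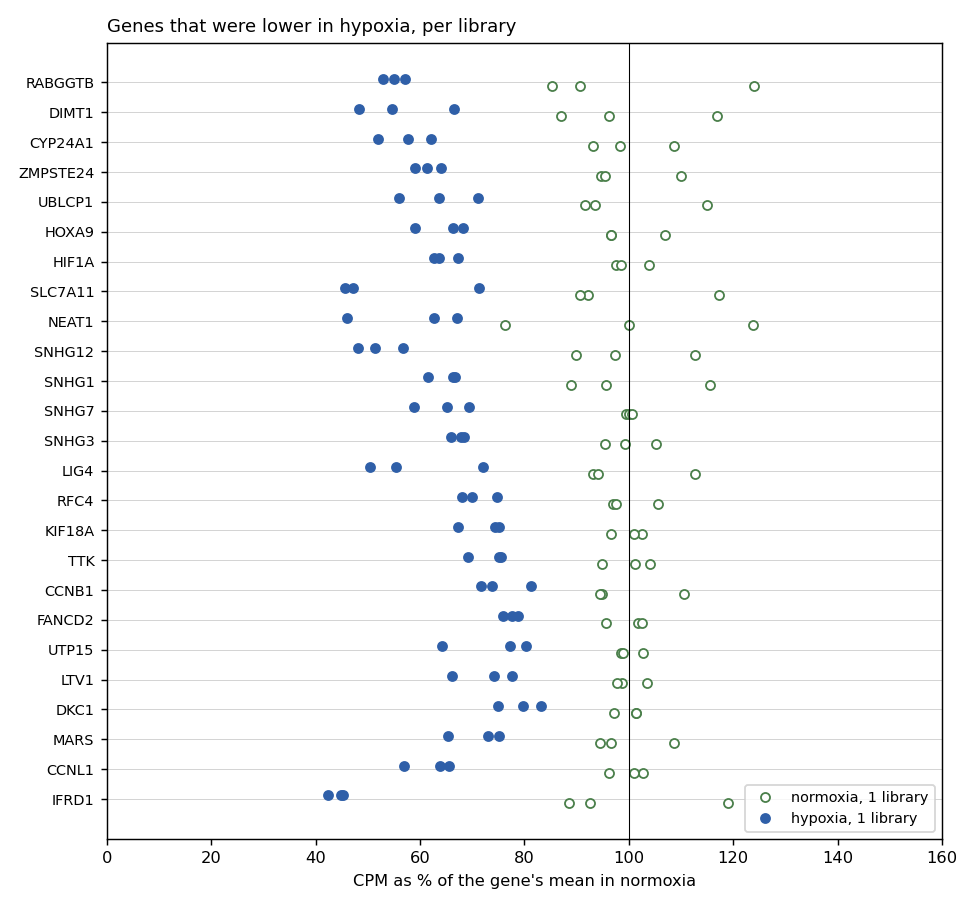
CPM in each HCT116 library as a percentage of the gene's normoxia mean, for 25 genes that were lower in hypoxia, with normoxia as open green and hypoxia as filled blue points. The hypoxia points of every gene lie left of all its normoxia points, and normoxia replicates differ most for RABGGTB, NEAT1 and IFRD1.

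IFRD1, a co-regulator of transcription, was at 49.8, 47.6 and 64.02 CPM in normoxia and 24.3, 22.8 and 24.2 CPM in hypoxia (log2 fold change -1.18 ± 0.10, adjusted p = 1.71e-05), the steepest called fall of any gene that averaged 10 CPM or more. Of the 72 genes that fell by at least 2-fold, LONRF2, EML6, SEC31B and the ammonium transporter RHBG were at -1.12, -1.11, -1.16 and -1.05 on the log2 scale, these 4 all under 5 CPM. By RefSeq class, 49 of 316 tested pseudogenes were lower (15.5%) and 20 higher (6.3%), and pseudogenes made up 15.7% of the 230 falls of 1.5-fold or more against 1.4% of the 555 rises as large. They were 2.2% of all genes tested. Pseudogenes share reads with their parent genes, so these values are uncertain one by one.

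Long noncoding RNAs moved in both directions. NEAT1, the scaffold of nuclear paraspeckles, was at 50.5, 66.3 and 82.02 CPM in normoxia and 30.4, 41.5 and 44.4 CPM in hypoxia (log2 fold change -0.77 ± 0.17, adjusted p = 0.00648). H19 rose from 4.14, 3.37 and 5.06 to 7.94, 10.8 and 10.8 CPM and UCA1 from 40.1, 33.99 and 37 to 76.7, 86.3 and 86.3 CPM. MALAT1 was at 172, 172 and 168 CPM in normoxia and 153, 154 and 176 CPM in hypoxia (adjusted p = 0.406). Of microRNA host transcripts, MIR17HG and MIR22HG fell from 4.40 ± 0.985 to 2.31 ± 0.321 and from 2.83 ± 0.742 to 1.40 ± 0.0449 CPM (log2 fold changes -0.93 and -1.01), and MIR210HG rose from 0.463 ± 0.141 to 8.28 ± 0.571 CPM. The mature microRNAs were not measured, but their sequences show what each host encodes (RefSeq, 5′ to 3′, seed at bases 2 to 8 in capitals). The miR-17 group lies on chromosome 13 between 92002872 and 92003636, miR-210 on chromosome 11 from 568112 to 568133 and miR-22 on chromosome 17 from 1617208 to 1617229 (GRCh37).
miR-210-3p: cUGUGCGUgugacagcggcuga
miR-17-5p: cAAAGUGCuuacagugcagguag
miR-20a-5p: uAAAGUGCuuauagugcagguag
miR-18a-5p: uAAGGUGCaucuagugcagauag
miR-19a-3p: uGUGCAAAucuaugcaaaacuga
miR-19b-3p: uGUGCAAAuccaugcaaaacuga
miR-92a-3p: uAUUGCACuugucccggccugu
miR-22-3p: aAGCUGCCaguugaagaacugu
miR-17-5p and miR-20a-5p share the seed AAAGUGC and the miR-19 pair shares GUGCAAA, so that MIR17HG encodes 4 seeds among its 6 microRNAs shown.

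Genes of cell division were lower in part. Of 61 mitosis genes 12 were lower (19.67%) and 5 higher (8.197%). Of 34 genes of homologous recombination and the Fanconi anaemia pathway 12 were lower (35.29%) and 1 higher. Among all genes 11.3% were lower and 14.6% higher. CCNB1, the mitotic cyclin, was at 495, 493 and 577 CPM in normoxia and 424, 373 and 384 CPM in hypoxia (log2 fold change -0.41 ± 0.081, adjusted p = 0.00445). The spindle checkpoint kinase TTK was at 135, 144 and 148 CPM in normoxia and 108, 107 and 98.8 CPM in hypoxia (log2 fold change -0.45 ± 0.066, adjusted p = 0.000817), and the kinesins KIF18A and KIF23 were 1.38-fold and 1.28-fold lower. MKI67, the source of the Ki-67 antigen, was higher, at 547, 472 and 491 CPM in normoxia and 701, 589 and 689 CPM in hypoxia (log2 fold change 0.39 ± 0.084, adjusted p = 0.00659), and so was the kinetochore protein CENPF (1.25-fold). Without normoxia replicate 2, 2 mitosis genes were higher, and with total-count scaling 30 were lower. Fewer dividing cells and less of these RNAs per dividing cell cannot be told apart.

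FANCD2, the protein that the Fanconi core complex ubiquitinates, was at 97.7, 98.5 and 91.8 CPM in normoxia and 72.9, 74.5 and 75.7 CPM in hypoxia (log2 fold change -0.37 ± 0.061, adjusted p = 0.00159). RAD51C, MRE11A and FANCE had log2 fold changes of -0.36, -0.29 and -0.32. LIG4, the ligase of end joining, was at -0.75 but is not a member of the recombination and Fanconi list. RMI2 was the member of that list that rose, from 9.60 ± 0.722 to 14.3 ± 1.88 CPM. Without hypoxia replicate 3 the number of lower genes was 7, and with total-count scaling 19.

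Of 50 DNA replication genes 7 were lower (14%, against 11.3% of all genes) and 4 higher (8.0%, against 14.6%). RFC4, a subunit of the clamp loader, was at 103, 103 and 112 CPM in normoxia and 79.1, 74.2 and 72.2 CPM in hypoxia (log2 fold change -0.50 ± 0.066, adjusted p = 0.000422), and its partner RFC3 was 1.34-fold lower. TIPIN, of the fork protection complex, was 1.38-fold lower. PCNA, the clamp itself, was at 489, 495 and 604 CPM in normoxia and 516, 480.5 and 482 CPM in hypoxia (adjusted p = 0.408). TK1, the thymidine kinase of S phase, went the other way, from 354, 359 and 332 to 515, 546 and 496 CPM. Without hypoxia replicate 2, 4 replication genes were lower, and without normoxia replicate 2 or 3 or hypoxia replicate 1 or 3, 1 was higher. Without normoxia replicate 1, 2 were.

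Of 20 cell cycle inhibitors, cyclins and kinases of G1, 8 were higher (40%, against 14.6% of all genes). None was lower (against 11.3%) and 12 did not pass. CCNG2, a cyclin found in resting cells, was at 4.90, 7.61 and 5.55 CPM in normoxia and 19.9, 36.6 and 22.4 CPM in hypoxia (log2 fold change 2.13 ± 0.22, adjusted p = 6.39e-05). CDKN1C, the inhibitor p57, was at 4.33, 6.08 and 5.07 CPM in normoxia and 13.1, 18.6 and 11.7 CPM in hypoxia (log2 fold change 1.49 ± 0.17, adjusted p = 0.000135), and BTG1, an antiproliferative factor, at 20.4, 21.2 and 18.7 CPM in normoxia and 39.4, 48.7 and 38.02 CPM in hypoxia (log2 fold change 1.06 ± 0.096, adjusted p = 2.32e-05). CDKN1A and CDKN1B were 1.46-fold and 1.25-fold higher. Of 30 p53 target genes 9 rose (30%, against 14.6% of all genes) and none fell (3 fell without normoxia replicate 1). BBC3, DDB2 and GDF15 rose by 0.76, 0.55 and 0.87 on the log2 scale. Of 12 genes of the MYC and MAX network 6 were higher (50%, against 14.6% of all genes) and 2 lower (16.67%, against 11.3%). MYC itself was at 412, 374 and 375 CPM in normoxia and 458, 449 and 453 CPM in hypoxia (adjusted p = 0.0231), and its call was lost without any 1 library other than normoxia replicate 1 (adjusted p = 0.0502 to 0.13). Partners that oppose it were higher, namely MXI1 (1.77-fold), MXD1 (1.74-fold), MNT (1.53-fold) and MGA (1.5-fold). MLXIPL, a glucose-sensing factor of the same network, was lower, at 9.06, 9.95 and 10.2 CPM in normoxia and 5.61, 6.93 and 6.81 CPM in hypoxia (log2 fold change -0.59 ± 0.10, adjusted p = 0.00181).

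Immediate early genes and feedback inhibitors of ERK signalling rose in 20 of 36 cases (55.56%, against 14.6% of all genes) and fell in none. SPRY1, an inhibitor of receptor tyrosine kinase signalling, was at 1.48, 1.39 and 1.23 CPM in normoxia and 9.14, 8.84 and 9.11 CPM in hypoxia (log2 fold change 2.72 ± 0.11, adjusted p = 1.83e-08). The AP-1 subunit FOSL2 was at 36.5, 31.4 and 39.5 CPM in normoxia and 100.2, 107 and 108 CPM in hypoxia (log2 fold change 1.55 ± 0.085, adjusted p = 2.7e-07). JUN, another, was at 11.8, 12.4 and 14.3 CPM in normoxia and 28.5, 43.8 and 29.7 CPM in hypoxia (log2 fold change 1.41 ± 0.15, adjusted p = 6.69e-05). ERRFI1, which inhibits the EGF receptor, was abundant, at 557, 588 and 618 CPM in normoxia and 1101, 1362 and 1241 CPM in hypoxia (log2 fold change 1.07 ± 0.083, adjusted p = 6.42e-06). JUND, KLF2, KLF6 and the ERK phosphatase DUSP6 rose 1.89-, 1.96-, 1.67- and 1.53-fold. The best known of these genes did not pass. FOS was at 3.91, 4.45 and 3.19 CPM in normoxia and 4.72, 5.19 and 4.31 CPM in hypoxia (adjusted p = 0.122). EGR1 was at 69.8, 57.99 and 39.7 CPM in normoxia and 58, 60.8 and 57.97 CPM in hypoxia (adjusted p = 0.745), its normoxia libraries spread around the hypoxia values. Of 14 NOTCH pathway genes 8 were higher (57.14%, against 14.6% of all genes), with NOTCH3 and its ligand JAG1 1.57-fold and 1.56-fold up.

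The response of SPRY1 was tested against that of PC3. Of 15493 genes in the test of the interaction of line and oxygen, 2.32% differed, 203 with a more positive (1.31%) and 156 with a more negative response in HCT116 (1.01%). That test has no replicate block, although same-numbered PC3 libraries deviated together (correlations 0.437 to 0.854). With the replicate number as a block 1307 genes passed in the difference of the hypoxia response between the lines. The differences given here are of the fit without a block. The log2 fold change of SPRY1 was 2.72 in HCT116 and -0.31 in PC3, a difference of 3.02 (adjusted p = 1.01e-09). ALDOC and DDIT4 also rose more in HCT116, by 2.74 and 2.57 on the log2 scale (adjusted p = 0.000131 and 0.00476). PKP2, a desmosome protein, and GCLM, a subunit of the enzyme that starts glutathione synthesis, fell in HCT116 and their log2 fold changes were lower than in PC3 (differences of -0.95 and -0.94, adjusted p = 0.000268 and 4.14e-05).

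Enzymes that hydroxylate collagen, which need oxygen, were strongly up. P4HA1, a prolyl hydroxylase, was at 34.9, 38.95 and 37.6 CPM in normoxia and 225, 261 and 204 CPM in hypoxia (log2 fold change 2.63 ± 0.094, adjusted p = 1.5e-08). PLOD2, a lysyl hydroxylase, was at 27.2, 29.1 and 27.8 CPM in normoxia and 192, 239.5 and 189 CPM in hypoxia (log2 fold change 2.88 ± 0.096, adjusted p = 1.04e-08). Neither overlapped between the conditions. P4HA2, PLOD1 and the lysyl oxidase LOXL2 rose 2.54-, 2.63- and 4.13-fold. Of 38 genes of collagen modification, matrix and integrins, 20 were higher (52.63%, against 14.6% of all genes) and 1 lower (2.632%, against 11.3%). None was lower without hypoxia replicate 1, and 2 were without hypoxia replicate 2. ITGB4 and ITGA5, integrin subunits, were 1.75-fold and 1.55-fold higher, the laminin chain LAMA3 1.84-fold and the urokinase receptor PLAUR 1.71-fold. P4HB, the beta subunit of prolyl 4-hydroxylase and a disulfide isomerase, was at 1237, 1208 and 1191 CPM in normoxia and 1839, 1992 and 1848 CPM in hypoxia (log2 fold change 0.64 ± 0.063, adjusted p = 4.26e-05). Of 29 epithelial genes 10 were higher (34.48%, against 14.6% of all genes) and 2 lower (6.897%, against 11.3%). The number lower was 1 without normoxia replicate 1 or 3 or hypoxia replicate 1 or 2. E-cadherin (CDH1) was at 30.4, 28.4 and 26.1 CPM in normoxia and 47.7, 53.97 and 46.03 CPM in hypoxia (log2 fold change 0.80 ± 0.081, adjusted p = 5.59e-05), with KRT8 and KRT19 1.3-fold and 1.37-fold higher. Of 7 mesenchymal markers tested 1 was lower (14.29%, against 11.3% of all genes) and 1 higher (14.29%, against 14.6%). The sum of these markers was 36.03 ± 2.87 CPM in normoxia and 37.4 ± 4.93 CPM in hypoxia. ZEB1, a repressor of CDH1, was at 6.64, 8.57 and 7.95 CPM in normoxia and 4.17, 5.37 and 4.29 CPM in hypoxia (log2 fold change -0.74 ± 0.13, adjusted p = 0.00193). Fibronectin (FN1) was at 7.53, 9.53 and 10.3 CPM in normoxia and 11.3, 12.7 and 16.5 CPM in hypoxia (adjusted p = 0.0156), and not past the threshold without hypoxia replicate 3 (adjusted p = 0.0675). Without hypoxia replicate 1, 2 mesenchymal markers were higher, and without normoxia replicate 3, 2 were lower.

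Histone demethylases are enzymes through which oxygen is thought to reach chromatin. Of 24 demethylases and other JmjC proteins, 11 were higher (45.83%, against 14.6% of all genes) and 2 lower (8.333%, against 11.3%). With a library left out 8 to 11 were higher, and without normoxia replicate 3, 4 were lower. KDM3A, which acts on H3K9, was at 34.3, 40.1 and 32.9 CPM in normoxia and 178, 211 and 187 CPM in hypoxia (log2 fold change 2.42 ± 0.093, adjusted p = 1.73e-08). KDM4B was at 25.2, 22.7 and 23.4 CPM in normoxia and 75.96, 80.96 and 80.1 CPM in hypoxia (log2 fold change 1.73 ± 0.067, adjusted p = 1.8e-08). KDM4C, KDM5B and KDM2A rose 1.73-, 1.54- and 1.35-fold. HSPBAP1, a JmjC protein, was lower, at 8.48, 8.96 and 10.1 CPM in normoxia and 6.02, 5.47 and 5.86 CPM in hypoxia (log2 fold change -0.67 ± 0.094, adjusted p = 0.000606). KDM6A, the H3K27 demethylase, was at 21.7, 21.7 and 21.5 CPM in normoxia and 22.9, 23.3 and 25.2 CPM in hypoxia (adjusted p = 0.14). Among 30 H3 methyltransferases 8 were higher (26.67%, against 14.6% of all genes) and 4 lower (13.33%, against 11.3%). Without normoxia replicate 1, 2 were lower. MLL (KMT2A) was at 67.8, 66.3 and 61.2 CPM in normoxia and 105, 100 and 109 CPM in hypoxia (log2 fold change 0.68 ± 0.067, adjusted p = 4.26e-05). Of 17 genes of DNA methylation, TET enzymes and related metabolism 3 were higher and 3 lower (17.65% each). Among all genes 14.6% were higher and 11.3% lower, and the list's median log2 fold change was 0.15. The methyl-binding protein MBD3 was 1.38-fold higher. TDG and MBD4, glycosylases that act on deaminated 5-methylcytosine, fell by 0.50 and 0.44 on the log2 scale, and DNMT3B, a DNA methyltransferase, by 0.32.

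Of 44 splicing regulators 8 were lower (18.18%, against 11.3% of all genes) and 3 higher (6.818%, against 14.6%). SRSF5 was at 158, 145 and 131 CPM in normoxia and 111, 99.9 and 102 CPM in hypoxia (log2 fold change -0.47 ± 0.080, adjusted p = 0.00177), and the kinase CLK4 and the SR-related LUC7L3 were 1.41-fold and 1.33-fold lower. CLK3, a kinase of the same family, was 1.55-fold higher. Without normoxia replicate 2, 4 of the list were lower, and without hypoxia replicate 1 or 3, 5 were. Of chaperones, 6 of 28 were lower (21.43%, against 11.3% of all genes) and 2 higher (7.143%, against 14.6%). CCT8, a subunit of the chaperonin that folds actin and tubulin, was at 786, 805 and 833 CPM in normoxia and 703, 677 and 651 CPM in hypoxia (log2 fold change -0.26 ± 0.063, adjusted p = 0.0128) and HSPA4 at 578, 592 and 590.2 CPM in normoxia and 503, 489.6 and 495 CPM in hypoxia (log2 fold change -0.24 ± 0.059, adjusted p = 0.0118). Without hypoxia replicate 2, 3 were lower, and without any 1 library other than normoxia replicate 3, 1 was higher. The chaperones HSP90AA1 and HSPA8, among the genes with the most counts, did not pass. HSP90AA1 was at 5433, 5531 and 5590 CPM in normoxia and 6030, 6387 and 5441 CPM in hypoxia (adjusted p = 0.269) and HSPA8 at 4848, 5162 and 5873 CPM in normoxia and 5726, 4811 and 4709 CPM in hypoxia (adjusted p = 0.673). Other abundant falls were those of DDX5, an RNA helicase, and CPNE3, a calcium-dependent membrane protein, at -0.29 and -0.41.

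Abundant rises outside metabolism included FAT1, a giant cadherin, at 906, 858 and 868 CPM in normoxia and 1625, 1656 and 1743 CPM in hypoxia (log2 fold change 0.93 ± 0.063, adjusted p = 1.73e-06). Prothymosin alpha (PTMA) was at 2462, 2356 and 2918 CPM in normoxia and 3795, 3802 and 3737 CPM in hypoxia (log2 fold change 0.55 ± 0.080, adjusted p = 0.000728). The scaffold protein AKAP12 and the actin-binding thymosin beta 10 (TMSB10) rose 1.45-fold and 1.61-fold. The transferrin receptor TFRC, which takes up iron, was at 834, 890.2 and 825 CPM in normoxia and 1165, 1215 and 1119 CPM in hypoxia (log2 fold change 0.46 ± 0.065, adjusted p = 0.000616). The cytoplasmic actins did not pass, ACTG1 at 7537, 7313 and 7277 CPM in normoxia and 7606, 6655 and 7166 CPM in hypoxia (adjusted p = 0.637) and ACTB at 3737, 3449 and 3340 CPM in normoxia and 3458, 3279 and 3558 CPM in hypoxia (adjusted p = 0.76). In AMPK, the energy sensor, the catalytic subunits went opposite ways, with PRKAA1 1.29-fold lower and PRKAA2 1.5-fold higher, and the beta subunit PRKAB2 was 1.49-fold lower. Both lists of immune genes stood near or under the shares of all genes, with 1 higher and 1 lower of 19 NF-kB and chemokine genes (1 to 2 and 0 to 2 with a library left out) and 4 and 2 of 32 interferon response genes. Without normoxia replicate 2 or hypoxia replicate 3, 2 interferon genes were higher. IFIH1, the sensor of double-stranded RNA, was at 4.74, 5.43 and 4.24 CPM in normoxia and 2.98, 2.86 and 2.69 CPM in hypoxia (log2 fold change -0.76 ± 0.12, adjusted p = 0.00124), and the exonuclease ISG20 rose 2.78-fold.

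**Figure D5:**
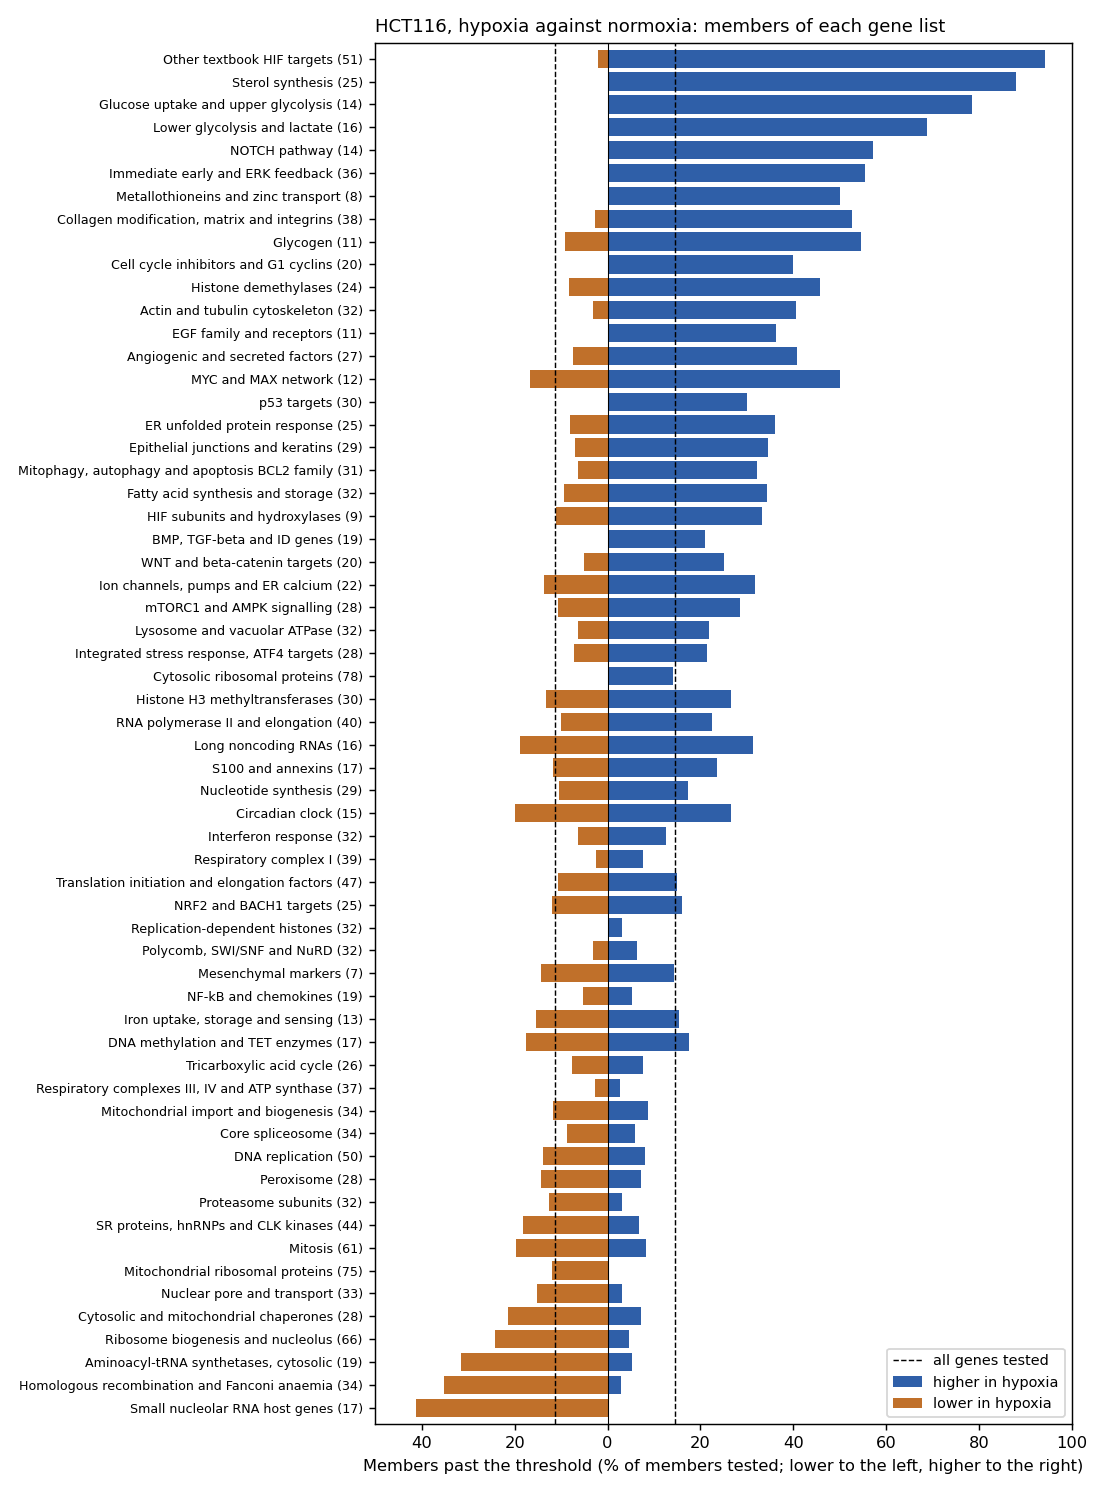
Percentage of the tested members (number in brackets) of each of the 60 gene lists that were higher (blue, right) or lower (orange, left) in hypoxia in HCT116. Dashed lines mark the shares among all 14120 genes, 14.6% higher and 11.3% lower. HIF targets, sterol synthesis and glycolysis lie at the top, and snoRNA hosts, recombination and Fanconi genes, tRNA synthetases and ribosome biogenesis at the bottom.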

How the data were processed

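Poly(A) RNA libraries of HCT116 and PC3 cells were sequenced by the authors. The deposited files hold raw counts per gene, 1 file per library: per the study's methods and the submitters' processing notes, reads were aligned with HISAT2 2.05, first to ERCC spike-in sequences, which are not used here, and then to GRCh37, and were counted with HTSeq 0.5.4p3 on RefSeq genes. The strand setting and RefSeq release are not given in the sources used here. Every group came from the sample titles. The main comparison used the 6 HCT116 libraries in edgeR 4.0.16 (filterByExpr, TMM scaling, glmQLFit and glmQLFTest, two-sided, Benjamini-Hochberg adjusted p under 0.05 over all 14120 genes tested). Standard errors were taken as the size of the unshrunken log2 fold change over the root of its F statistic. CPM are TMM-scaled, and floors cover counting error only. The standard errors also take in the spread between libraries that edgeR estimated, and the ± of a CPM is an SD over 3 libraries. The difference between the lines was an interaction term over all 14 libraries. DESeq2 1.42.0 was an alternative. Gene lists were described by counts, medians and summed levels. A permutation test of a sum, 3 libraries against 3, cannot go below 0.1 and is not quoted. The members and lists were chosen with earlier results of these data known. Most named genes were list members or the 25 largest rises and falls that averaged 1 CPM or more and did not overlap. Also named were the 15 largest gains and losses of CPM, the 10 most abundant genes and some others. On simulated data, 179 of 200 genes changed by 2-fold were recovered, with 11 false calls among 14029 genes. RefSeq promoters were available for 11016 tested genes. Some members of the sterol list are not reported here by name.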

Additional observations from a re-analysis of the deposited data

Results flagged for a closer look

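The response to hypoxia differed between HCT116 and PC3 for 359 of the 15493 genes in the interaction test, 2.32% of them. The count was 177 without hypoxia replicate 2 of HCT116, and with the replicate number as a block the difference of the hypoxia response between the lines passed for 1307 genes. The 204 genes given with values here were chosen partly for their change in HCT116, and some for differing between the lines. Their share and balance therefore cannot be set against those of all genes. Of the 204, 38 differed, 26 with a more positive and 12 with a more negative response in HCT116. With any HCT116 library left out, 27 of the 38 kept the call. Among these 27, the genes with the more positive response included glycolytic genes, the mitophagy receptors BNIP3 and BNIP3L, and the collagen hydroxylases P4HA1, PLOD1 and PLOD2. Their differences of the log2 fold change (HCT116 minus PC3) were CA9 4.353, SPRY1 3.02, MIR210HG 2.966, ALDOC 2.743, DDIT4 2.57, BNIP3L 2.29, PDK1 2.261, PLOD2 1.864, BNIP3 1.497, KDM3A 1.405, P4HA1 1.354, PFKFB4 1.306, HK2 0.965, KDM4B 0.955, TFRC 0.908, PLOD1 0.815, LDHA 0.8 and PFKL 0.599. Those more negative in HCT116 were ME1 -0.666, ZMPSTE24 -0.719, DIMT1 -0.799, IFRD1 -0.81, GCLM -0.938, PKP2 -0.954, PFKFB3 -1.246, FAM13A -1.252 and ITPR1 -1.893. The other 11 lost the call in at least 1 such fit. Their differences were FOSL2 1.01, ENO2 0.979, GPI 0.941, LOXL2 0.701, PLAUR 0.642, JAG1 0.614, GYS1 0.599 and GBE1 0.582 on the positive side, and PRKAB2 -0.441, SLC7A11 -0.846 and ITGA5 -0.858 on the negative. The lines were grown in different media, and line and medium cannot be told apart.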

How the results depend on the processing

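Of the 2061 genes higher and 1597 lower, the counts were 1924 and 1734 with median-of-ratios scaling, 1901 and 1746 with upper-quartile scaling, and 2106 and 1938 with DESeq2, all within 1.5 times. Total-count scaling gave 1286 higher and 3146 lower, and 1 fit over both lines gave 938 and 795. A log2 fold change of at least 1 left 219 higher and 72 lower. With 1 library left out, 1378 to 1853 were higher and 1068 to 1486 lower, the fewest higher without normoxia replicate 2 and the fewest lower without hypoxia replicate 3. The count for the difference of the hypoxia response between the lines, 359, was 374 with median-of-ratios scaling, 332 with total counts and 177 to 242 with an HCT116 library left out, the fewest without hypoxia replicate 2. Same-numbered HCT116 libraries deviated together for replicate 2 only (correlations 0.018, 0.449 and -0.129). With 3 libraries per condition this does not settle whether the numbers pair them. In PC3 all 4 same-numbered pairs deviated together (0.854, 0.623, 0.437 and 0.446). With the replicate number as a block, 2098 genes were higher and 1656 lower in HCT116, and 1307 differed between the lines. The 214 genes named as changed were limited to those called with each library left out, so that this was fixed in advance. Over all calls 56.1% of the higher and 47.7% of the lower genes were kept so. MYC and FN1, which lost their calls, are not among the 214. Under every scaling the 214 kept their call, except FBL under total counts, and 35 lost it in the fit over both lines. Floors of about 0.02 CPM leave depth no limit for the genes named, and 3 libraries per condition set the precision.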
